A study of Arabidopsis thaliana with 36 samples.

Results

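ORA59, ERF1, 5 plant defensin genes, PR4 and CHI-B form the defence branch that answers ethylene and jasmonate together in Arabidopsis thaliana. These 9 genes were taken by locus from the 32548 genes of the deposited tables, and all 9 passed the filter on low values. Their transcript levels were measured by RNA-seq in 12-day-old seedlings of 12 genotypes, with 3 libraries each. The seedlings grew on Murashige and Skoog plates in long days, with a light period of 16 h (23 °C) and a night of 8 h (22 °C). The design asks how the loss of subunits of SWI/SNF complexes, which move nucleosomes with the energy of ATP, alters transcript levels relative to wild type. The mutants are homozygous, as the labels write them: brm (brm-/-), brd1213 (brd1-/-brd2-/-brd13-/-), brip12 (brip1-/-brip2-/-), syd (syd-/-), swi3d (swi3d-/-), sys123 (sys1-/-sys2-/-sys3-/-), minu12 (minu1-/-minu2-/-), pms2ab (pms2a-/-pms2b-/-), swp73b (swp73b-/-), bcl7ab (bcl7a-/-bcl7b-/-) and an3 (an3-/-). From knowledge of the study, brm, brd1213 and brip12 stand for the BAS class of complex, syd, swi3d and sys123 for the SAS class, and minu12 and pms2ab for the MAS class. No hormone, pathogen or elicitor treatment is named in the labels.

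In this branch, ethylene stabilises the transcription factors EIN3 and EIL1, and jasmonate acts through the receptor COI1. Both signals meet at ERF1 and ORA59, AP2/ERF transcription factors that bind the GCC box in promoters of defence genes. The targets encode antifungal proteins: plant defensins, which are small cysteine-rich peptides, the hevein-like protein PR4 and the basic chitinase CHI-B. Salicylic acid signalling and the MYC2 arm of the jasmonate pathway are known to oppose the branch.

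Values below are normalised read counts, that is reads at a common library size, given as deposited by the authors. Each library held 21070583 to 23761910 recovered reads (mean 23094192), and a value of 1 stands for about 1 read. A gene rose or fell in a mutant where limma's test over 23297 genes gave an adjusted p under 0.05, and log2 changes are on log2(value + 1), which understates the change of genes near 0. Separate plants are not named in the labels as the source of the 3 libraries, so p-values reflect no more than the scatter of these samples, and that scatter may be technical. Transcripts of BRM, SWI3D and SWP73B stood at 6.36%, 17.7% and 26.3% of wild type in brm, swi3d and swp73b. SYD transcripts were at 165% of wild type in the libraries labelled syd and AN3 transcripts at 102% in those labelled an3, so the transcript level does not check these 2 labels. Markers of leaf mesophyll (5 genes, 18883 to 43760 CPM, a depth-scaled read count) and of root endodermis, tip and hair (13 genes, 68.9 to 142.8 CPM) were present in every library. Whole seedlings hold many cell types, so more cells of a type and more RNA per cell cannot be told apart in any result below.

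The GCC box, the binding site of these factors, was searched as the letters GCCGCC on both strands before the annotated start of each gene. Levels of defensin genes with and without it are given below. Within 250 bases the box stood before 3 of the 9 genes, against 1.87% of 27443 protein-coding genes, and within 1000 bases before 5 of the 9, against 8.44%. The 5 sites are shown 5′ to 3′ on the strand of the gene, with the box in capitals, from the RefSeq assembly TAIR10.1.
ORA59: tgtcgggaatacGCCGCCgtacgtcataca
PDF1.2: tcagattaaccaGCCGCCcatgtgaacgat
PDF1.2b: tcagattaaccaGCCGCCcatgcaaagcca
PR4: caatcacaattaGCCGCCtctcctcattag
CHI-B: gatcacgaacccGCCGCCtcatattcataa
The sites lie at chr1:1882665-1882694 on the plus strand, 230 bases before the ORA59 start, at chr5:17907843-17907872 on the minus strand, 222 bases before PDF1.2, and at chr2:11088968-11088997 on the plus strand, 143 bases before PDF1.2b. Those of PR4 (chr3:1287131-1287160) and CHI-B (chr3:3964606-3964635), both on the minus strand, lie 388 and 639 bases before the start. To the left of the box, the printed letters of PDF1.2 and PDF1.2b are identical. No GCCGCC was found within 1000 bases before ERF1, PDF1.1, PDF1.2c or PDF1.3, which says only that these letters are not in that window.

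PDF1.2 (AT5G44420) and PDF1.2c (AT5G44430) are neighbours on chromosome 5 in the same orientation, 1211 bases apart. Their 250 bases before the start are printed in full because their levels were the most alike of the 9 genes. Only the PDF1.2 window holds the box, and the part of the box in these levels was not tested.
PDF1.2: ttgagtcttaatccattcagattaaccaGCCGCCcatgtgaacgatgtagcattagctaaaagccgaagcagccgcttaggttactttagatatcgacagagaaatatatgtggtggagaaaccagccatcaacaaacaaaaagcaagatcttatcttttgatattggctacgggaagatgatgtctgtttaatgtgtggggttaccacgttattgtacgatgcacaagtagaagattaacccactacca
PDF1.2c: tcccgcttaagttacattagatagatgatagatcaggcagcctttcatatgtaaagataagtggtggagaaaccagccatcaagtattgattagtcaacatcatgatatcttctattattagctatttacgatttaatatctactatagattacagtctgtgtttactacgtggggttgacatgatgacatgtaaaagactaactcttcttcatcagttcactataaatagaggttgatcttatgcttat
The windows are chr5:17907639-17907888 and chr5:17909508-17909757 of TAIR10.1, both read on the minus strand, and 51% of their letters were identical after alignment. PDF1.3 (AT2G26010) and PDF1.2b (AT2G26020) form a second such pair on chromosome 2, 1121 bases apart, with 60.5% identical letters in these windows. Over all pairs of the 5 defensin genes the identity ran from 49.5% (PDF1.1 and PDF1.2) to this value, so 51% is not particular to neighbours. The G box CACGTG, the palindrome that MYC2-type factors bind, stood within 250 bases before ORA59 alone among the 9, 194 bases before its start, against 6.49% of all genes. TGACG, the core that TGA factors bind, was found on either strand within 1000 bases before 7 of the 9, against 54.1% of all genes.

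Across the mutants, ORA59 rose widely, the defensins rose in a subset of the genotypes in which ORA59 rose, and ERF1 rose in none. In brm 7 of the 9 genes rose and CHI-B fell, where 24.7% of all genes tested rose and 25.5% fell. In brd1213 ORA59, PDF1.1 and PDF1.3 rose and CHI-B fell (all genes 9.23% and 10.6%). In brip12 ORA59 alone rose and CHI-B fell (all genes 11.8% and 13.2%). These 3 BAS mutants shared a rise of ORA59 and a fall of CHI-B.

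None of the 9 rose in the libraries labelled syd, where ERF1, PDF1.3 and CHI-B fell (all genes 11.9% higher and 11.3% lower). In swi3d 5 rose (ORA59, PDF1.2, PDF1.2b, PDF1.2c and PDF1.3) and ERF1 fell (all genes 11.2% and 11%). In sys123 none rose, and ERF1 and CHI-B fell (all genes 14.2% and 12.8%). Among the SAS mutants, rises were thus called in swi3d alone.

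In minu12 6 rose, CHI-B among them, and ERF1 fell (all genes 24.1% and 24.8%). In pms2ab 6 rose and none fell (all genes 29.0% and 29.8%). In swp73b 6 rose and ERF1 fell (all genes 23.9% and 25.5%). In bcl7ab ORA59 and PDF1.3 rose and ERF1 fell (all genes 16.4% and 14.2%). In the libraries labelled an3 6 rose and none fell, where 5.03% of all genes rose and 5.74% fell, the smallest background of the 11 mutants. The median log2 change of the 9 genes ran from -0.66 in syd to 2.85 in brm, and that of all genes tested stayed between -0.02 and 0.02. Leaving out 1 library moved 3 of these counts by over 1.5 times: from 4 to 2 called genes in brd1213 without its library 2, and without wild-type library 2 from 2 to 4 in brip12 and from 3 to 5 in bcl7ab.

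**Figure D1:**
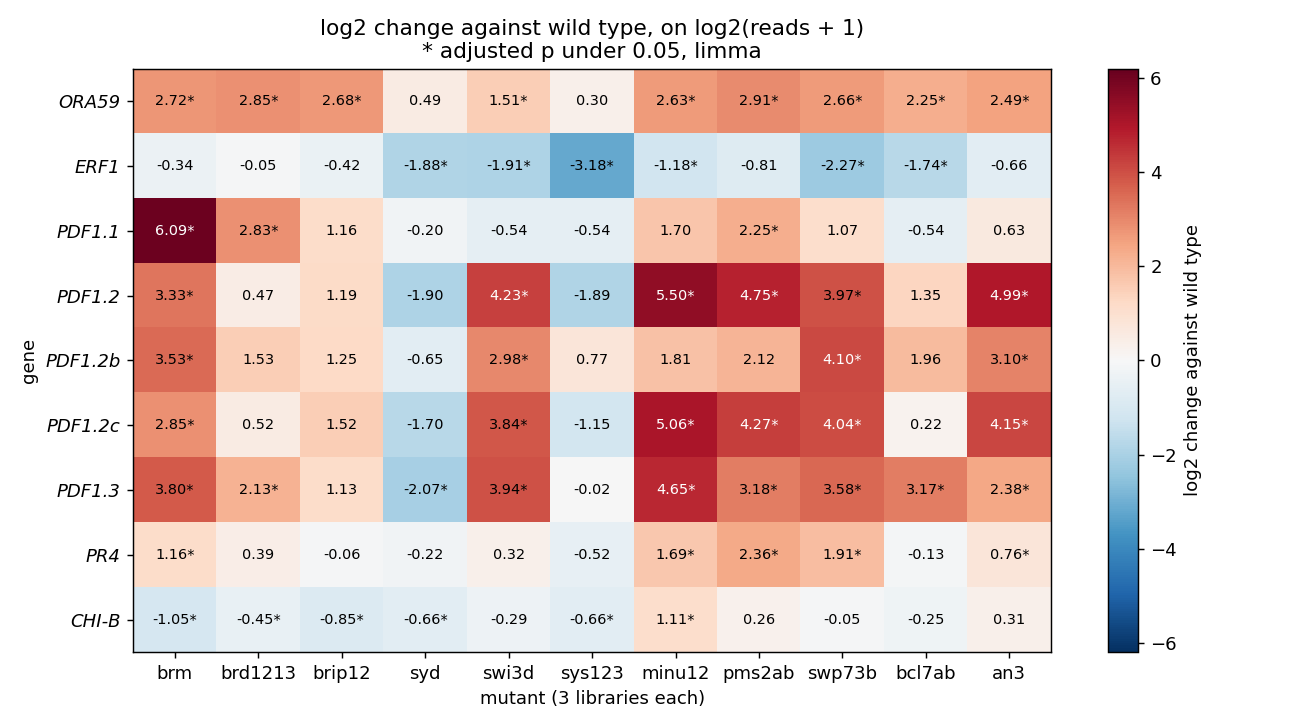
Log2 change of each of the 9 genes (rows) in each of the 11 mutants (columns) against wild type, on log2(reads + 1), with 3 libraries per genotype. Stars mark an adjusted p under 0.05 in limma. Changes that rest on few reads, as for PDF1.1 and for PDF1.2 in syd and sys123, depend on the pseudocount. ORA59 is starred in 9 mutants, always higher, and ERF1 in 6, always lower.

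ORA59 (AT1G06160), a transcription factor that activates the defensin genes and integrates both hormone signals, rose in 9 of the 11 mutants. Its normalised read counts in wild type were 31.2, 27.1 and 39.0, a mean of 32.4 ± 6.07 (SD, n = 3). In pms2ab they were 303, 200.4 and 251, in brd1213 209, 242 and 265, and in brm 235, 191 and 229. Every library of these 3 mutants lay above every wild-type library, by log2 changes of 2.91 ± 0.28, 2.85 ± 0.28 and 2.72 ± 0.28 (SE, limma adjusted p = 4.4e-10, 1.02e-08 and 4.46e-09).

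ORA59 was close to that level in brip12 (218, 165 and 258), swp73b (166, 196 and 276), minu12 (254, 167 and 198) and an3 (176, 169.8 and 209). It was higher than wild type in bcl7ab too, at 120.2, 128 and 246, where library 3 stood above the other two. None of the 7 gaps between neighbours from pms2ab (mean 251) down to bcl7ab (mean 165) was called, with adjusted p between 0.591 and 0.963. The ends of that stretch were told apart: pms2ab was higher than bcl7ab by a log2 difference of 0.67 ± 0.28 (limma adjusted p = 0.0402).

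ORA59 was lowest among the SAS mutants. In swi3d it was 107, 115 and 65.7, still above every wild-type library (log2 change 1.51 ± 0.28, limma adjusted p = 0.000192). It was 46.1, 48.4 and 42.1 in the libraries labelled syd and 31.3, 71.5 and 27.6 in sys123. The syd values lay above the 3 wild-type values but were not called (0.49 ± 0.28, limma adjusted p = 0.22), and the sys123 values overlapped wild type (0.30 ± 0.28, limma adjusted p = 0.464). In the order of means the step from bcl7ab to swi3d just missed the threshold (adjusted p = 0.0501), the step from swi3d to syd was called (log2 difference 1.02 ± 0.28, limma adjusted p = 0.00851), and syd, sys123 and wild type were not told apart. The rise in each of the 9 mutants was called under every alternative processing tried.

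ERF1 (AT3G23240), the factor that EIN3 activates directly, fell in 6 mutants and rose in none. It was 21.8, 21.9 and 28.1 in wild type, a mean of 23.9 ± 3.63. In sys123 it was 1.097, 2.08 and 2.17, in swp73b 5.70, 3.58 and 3.40, and in swi3d 3.01, 7.11 and 7.87. These were the lowest means of the 12 genotypes, with every library under every wild-type value, with log2 changes of -3.18 ± 0.42, -2.27 ± 0.42 and -1.91 ± 0.42 (limma adjusted p = 1.62e-06, 4.98e-05 and 0.00123).

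ERF1 also fell in syd (12.0, 7.06 and 1.92), bcl7ab (7.02, 3.36 and 10.8) and minu12 (11.6, 11.6 and 7.17). In the libraries labelled syd the 3 values were spread widely, and the fall of 1.88 ± 0.42 on the log2 scale (limma adjusted p = 0.00113) was not called in a fit of only syd and wild type (adjusted p = 0.0541). In minu12 the fall (limma adjusted p = 0.0202) was lost without wild-type library 3 (0.0653) or minu12 library 3 (0.0953). The BAS mutants stayed near wild type, with 25.6, 16.8 and 14.7 in brm, 26.9, 19.6 and 22.8 in brd1213, and 23.2, 12.1 and 19.1 in brip12, all overlapping it. The values of pms2ab (18.3, 12.1 and 10.13) and an3 (14.8, 11.2 and 19.1) lay under the 3 wild-type values without being called (limma adjusted p = 0.0973 and 0.37). ERF1 was called lower in pms2ab by edgeR on recovered reads (0.0484) and with a pseudocount of 5 (0.0385). A fit of only pms2ab and wild type called it lower too (0.0483).

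Per kilobase of annotated transcript, the levels of ORA59 and ERF1 were 8.70 and 0.834 CPM per kilobase in brm and 8.22 and 0.445 in minu12. Ordered from wild type to sys123, no gap between neighbouring genotypes was called for ERF1, so only genotypes farther apart in the order were told apart.

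**Figure D2:**
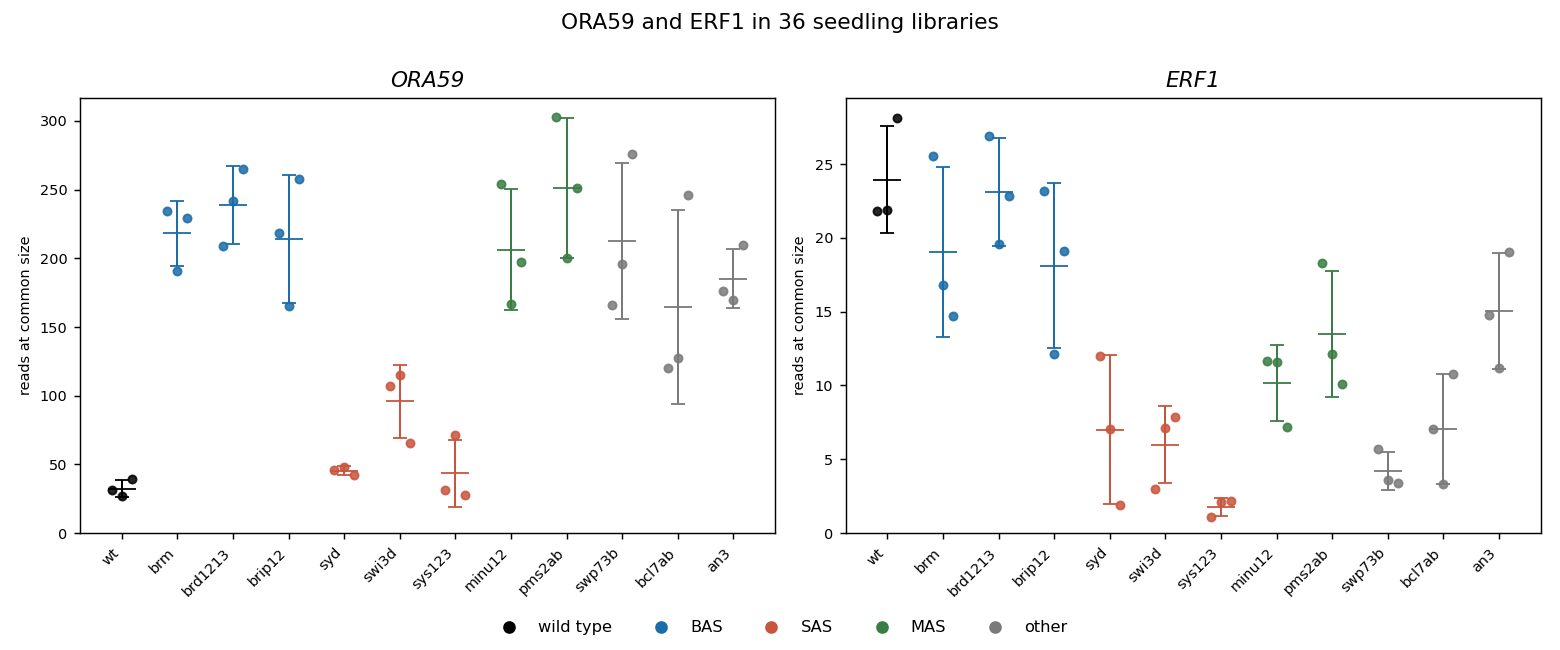
Normalised read counts of ORA59 and ERF1 (vertical axes, reads at the common library size) in the 36 libraries of 12 genotypes. Points are libraries, bars are means ± SD (n = 3), and colours give the class of complex. ORA59 is near 32.4 in wild type and over 160 on average in 8 mutants, and ERF1 is highest in wild type with a mean of 23.9.

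PDF1.2 (AT5G44420), the defensin gene commonly used as the marker of this branch, rose in 6 mutants. In wild type it was 2.18, 31.8 and 0, so library 2 carried nearly all of its reads. In minu12 it was 415, 130.1 and 177, in pms2ab 189.5, 92 and 115, and in an3 341, 57.2 and 167. Every library of these 3 lay above library 2 of wild type, with log2 changes of 5.50 ± 0.91, 4.75 ± 0.91 and 4.99 ± 0.91 (limma adjusted p = 1.05e-05, 4.88e-05 and 0.000271).

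PDF1.2 also rose in swi3d, where it was 160.2, 60.1 and 69.6, in swp73b (35.3, 76.7 and 141) and in brm (37.5, 57.4 and 46.4). These groups too did not overlap wild type, and the log2 changes were 4.23, 3.97 and 3.33, each ± 0.91 (limma adjusted p = 0.00102, 0.000621 and 0.00298). The brm call was not made by DESeq2 on recovered reads (adjusted p = 0.0822). In brd1213 (8.54, 3.90 and 4.96), brip12 (13.9, 1.04 and 40.1) and bcl7ab (7.43, 5.64 and 29.9) the values overlapped wild type and were not called, although ORA59 rose in all 3. Without wild-type library 2, the changes in brip12 and bcl7ab were called higher (adjusted p = 0.0253 and 0.0149).

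In the libraries labelled syd and in sys123 PDF1.2 was at the limit of detection, with 1 read in 3 libraries of each, against 33 reads in wild type, 31 of them in library 2. These values were not called by limma (adjusted p = 0.137 and 0.124), and both were called lower by DESeq2 on recovered reads (0.00864 and 0.00932) and without wild-type library 3 (0.0191 and 0.0211). No fold is given for so few reads.

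PDF1.2c (AT5G44430), the neighbour of PDF1.2, rose in the same 6 mutants. It was 1.09, 15.4 and 0 in wild type and 182, 46.9 and 142.5 in minu12, 219, 11.4 and 68.9 in an3, and 106, 44.5 and 49.9 in pms2ab. Library 2 of an3 lay below library 2 of wild type, and the other groups called did not overlap wild type. The log2 changes of these 3 were 5.06, 4.15 and 4.27, each ± 0.93 (limma adjusted p = 4.3e-05, 0.00253 and 0.000227). In brm the rise was smaller, 2.85 ± 0.93 (limma adjusted p = 0.0113), and was lost without wild-type library 3 (0.0987), in edgeR (0.112) and in DESeq2 (0.113). In an3 it was lost in a fit of only an3 and wild type (0.0502). PDF1.2c had 0 reads in the libraries labelled syd and 2 in sys123, against 16 in wild type. Neither was called by limma (adjusted p = 0.198 and 0.383). DESeq2 called syd lower (0.0141), as did limma with a pseudocount of 0.1 (0.0425). In brip12 (10.7, 1.03 and 33.1) PDF1.2c was not called, but was called higher without wild-type library 2 (0.034) or brip12 library 2 (0.0474).

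PDF1.2b (AT2G26020), on chromosome 2, rose in 4 mutants. It was 0.0176, 5.13 and 0.85 in wild type, 20.4, 33.1 and 79.6 in swp73b, and 39.8, 12.8 and 30.7 in brm. Both mutants lay above wild type in every library, with log2 changes of 4.10 ± 0.95 and 3.53 ± 0.95 (limma adjusted p = 0.000699 and 0.00264). The rises in swi3d (30.04, 4.16 and 34.5) and an3 (57.4, 4.17 and 22.9) had a library inside the wild-type range. Their adjusted p of 0.0233 and 0.0317 in limma rose as far as 0.127 and 0.189 when 1 library was left out, and the swi3d call needed wild-type library 1 (0.127 without it) and 3 (0.0625) and swi3d library 1 (0.0984) and 3 (0.109). The an3 call likewise needed wild-type library 1 (0.161) and 3 (0.0958) and an3 library 1 (0.189) and 3 (0.0995). It was also lost in a fit of only an3 and wild type (0.064).

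PDF1.2b was not called in minu12 (10.7, 1.85 and 13.9, limma adjusted p = 0.118) or pms2ab (12.5, 7.42 and 7.38, adjusted p = 0.0561), where PDF1.2 and PDF1.2c rose. Without wild-type library 2, PDF1.2b was called higher in minu12 (0.0484), pms2ab (0.0218) and bcl7ab (0.0497), and without minu12 library 2 in minu12 (0.0458). In pms2ab, where no library overlapped wild type, it was also called higher with a pseudocount of 0.1 (0.0349). A fit of only pms2ab and wild type called it higher too (0.0176). Per kilobase, minu12 had 18 CPM of PDF1.2 and 0.626 CPM of PDF1.2b, and brm had 3.52 and 1.97.

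PDF1.3 (AT2G26010), the neighbour of PDF1.2b, rose in 8 mutants, the most of the 5 defensins. It was 18.5, 3.20 and 4.34 in wild type, 217, 172 and 184 in minu12, and 170.2, 106 and 86.3 in swi3d. Neither mutant overlapped wild type, and the log2 changes were 4.65 ± 0.75 and 3.94 ± 0.75 (limma adjusted p = 6.93e-06 and 0.00026). It was 76.8, 128 and 118 in brm, 56.1, 85.7 and 149 in swp73b, 93.3, 90.9 and 36.6 in pms2ab, and 33.1, 67.1 and 135 in bcl7ab, each above wild type in every library, with log2 changes from 3.17 to 3.80.

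PDF1.3 rose less in an3 (48.4, 39.6 and 29.9, log2 change 2.38 ± 0.75, limma adjusted p = 0.0363) and brd1213 (47.2, 47.1 and 14.8, 2.13 ± 0.75, 0.0425), and library 3 of brd1213 lay under library 1 of wild type. Both calls were lost when single libraries were left out: in an3 without wild-type library 2 (0.131) or 3 (0.131) or an3 library 1 (0.109), 2 (0.0894) or 3 (0.0624), and in brd1213 when wild-type library 2 (0.165) or 3 (0.129) was dropped, or library 1 (0.138) or 2 (0.142) of the mutant. They were also not made, in an3 and brd1213 respectively, by edgeR (0.0783 and 0.0626) or DESeq2 (0.0618 and 0.0539) on recovered reads, with no filter (0.0503 and 0.0577) or with a pseudocount of 0.1 (0.0791 and 0.0834). The brd1213 call also failed in a fit of only the groups compared (0.0514) and with library totals as scaling (0.0511). The libraries labelled syd held 3 reads of PDF1.3, against 26 in wild type, which limma called lower (adjusted p = 0.0441). This call failed when wild-type library 1 (0.245) or 3 (0.051) was dropped, without syd library 2 (0.184) or 3 (0.0793), and in edgeR on recovered reads (0.177). It also failed with a pseudocount of 5 (0.208), in a fit of only syd and wild type (0.0953) and with no filter (0.059).

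PDF1.1 (AT1G75830), a defensin best known from seeds, rose in brm, brd1213 and pms2ab. Wild type held 2 reads, both in library 2. In brm its values were 489.5, 29.4 and 64.8, in brd1213 2.44, 9.76 and 28.8, and in pms2ab 7.70, 2.69 and 9.39. All 3 groups lay above wild type, and library 1 of brm stood far above the others. The limma adjusted p were 1.65e-07, 0.00874 and 0.0136, and no fold against 2 reads is given.

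The brd1213 call of PDF1.1 was lost without brd1213 library 3 (adjusted p = 0.0878) and the pms2ab call without wild-type library 1 (0.0558) or 3 (0.0535) or pms2ab library 3 (0.0589). Neither was made by edgeR (0.0626 and 0.14) or with a pseudocount of 5 (0.0534 and 0.114), and DESeq2 did not call pms2ab (0.0645). In minu12 (2.89, 4.85 and 3.63) PDF1.1 lay above wild type without being called (0.0702), and was called without wild-type library 2 (0.0336). It was also called there with a pseudocount of 0.1 (0.0169) and in a fit of only minu12 and wild type (0.0395). No read of PDF1.1 was found in swi3d, sys123 or bcl7ab, which allows up to 3 reads in the 3 libraries together. The summed level of 7 seed marker genes, among them the storage protein genes CRA1 and CRC and the oleosin gene OLEO1, ranged from 0.632 to 0.828 CPM for wild type and from 3.82 to 39.2 CPM for brm, with 2.01 to 27.8 CPM in brd1213 and 34.1 to 94.6 CPM in pms2ab. Of these 7 genes 4 rose in brm, 4 in pms2ab, 5 in minu12 and 3 in swp73b, where 24.7%, 29.0%, 24.1% and 23.9% of all genes rose. In brm library 1 had the highest sum, 39.2 CPM, and in brd1213 library 3, the highest for PDF1.1, had the lowest, 2.01 CPM. In minu12 library 2 the seed sum was 529.9 CPM and PDF1.1 was 4.85. The part of seed programmes in the PDF1.1 result was not tested.

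**Figure D3:**
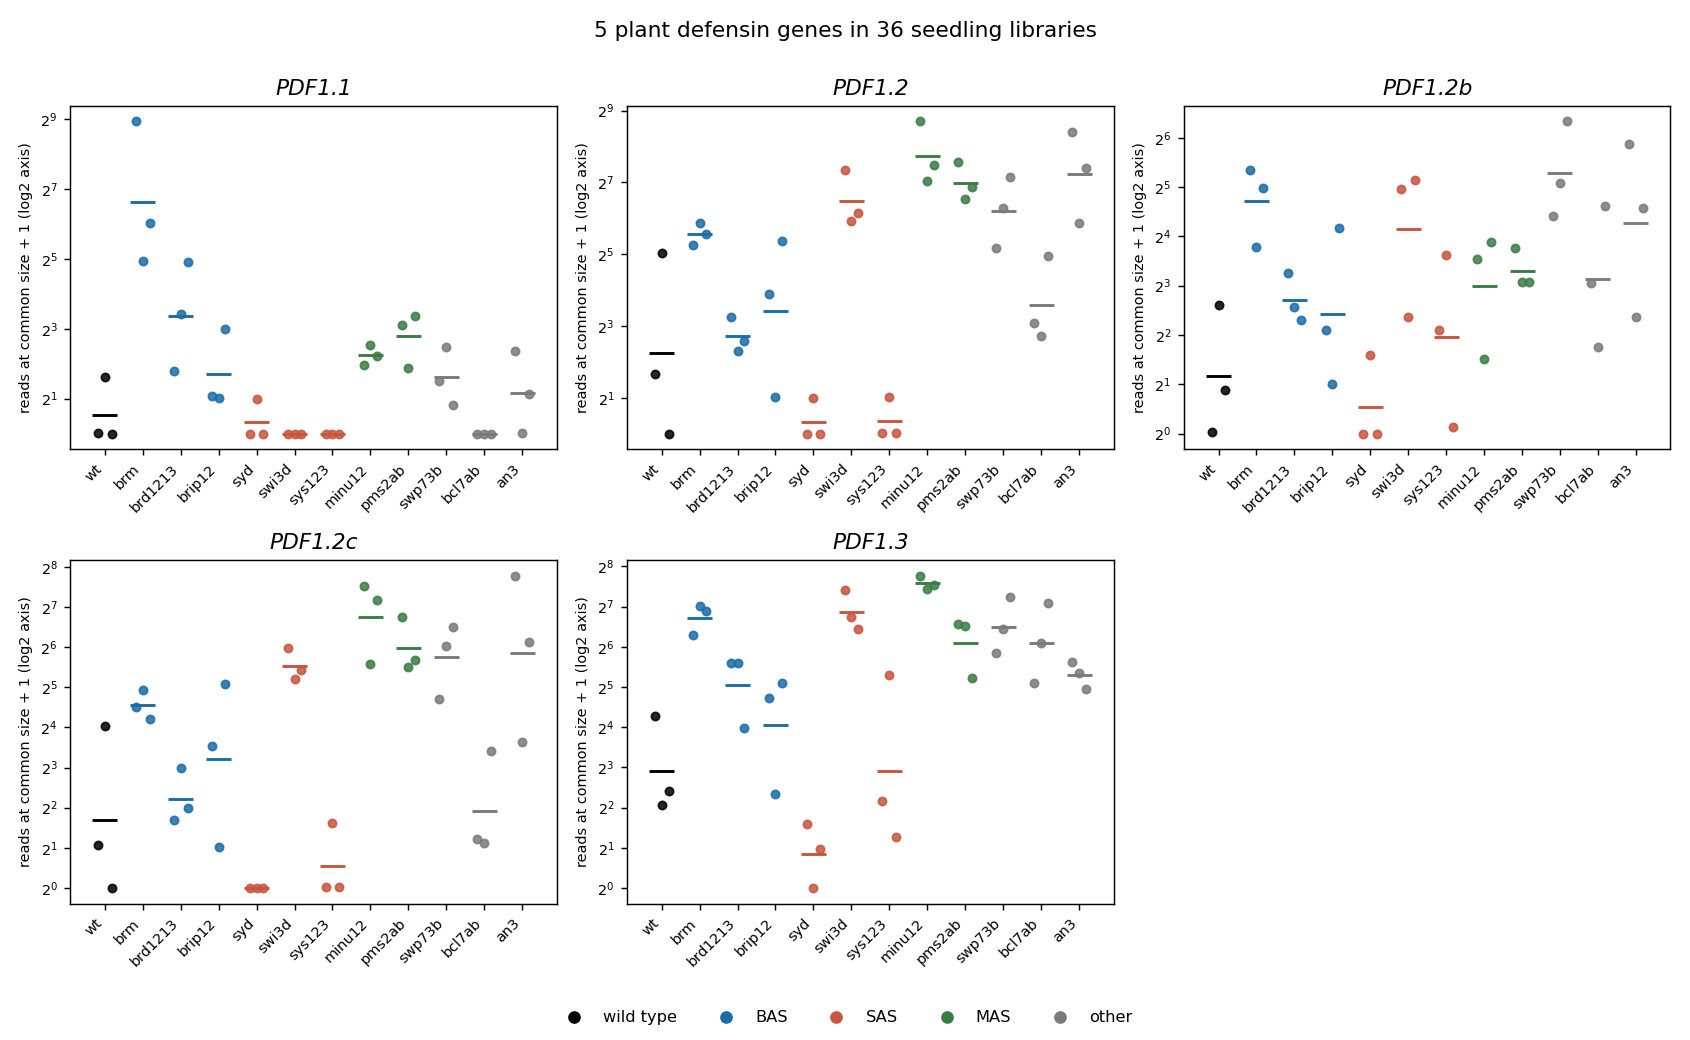
Normalised read counts plus 1 (log2 axes) of the 5 defensin genes in 36 libraries of 12 genotypes. Points are libraries, lines are means of log2(reads + 1), n = 3, and colours give the class of complex. Points at the base of an axis held 0 reads, as for all 3 libraries of PDF1.1 in swi3d, sys123 and bcl7ab.

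The 5 defensins made up mixtures that varied between genotypes and also between libraries of the same genotype. Their summed normalised read count was 28.2 ± 26.8 in wild type, 568 ± 239.7 in minu12, 399.8 ± 230.2 in brm, 357 ± 284.5 in an3, 288 ± 105 in pms2ab, 288 ± 162 in swp73b and 287 ± 118 in swi3d (SD, n = 3). It was 108 ± 79.4 in bcl7ab, 65.7 ± 8.95 in brd1213, 64.3 ± 61.7 in brip12, 20.3 ± 28.1 in sys123 and 2.34 ± 1.55 in the libraries labelled syd.

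PDF1.1 took 48.9% of 1264 defensin reads in brm (95% Wilson interval 46.1% to 51.6%) and 0.669% of 1795 in minu12 (0.383% to 1.16%). In brm the share rested on library 1, at 73.4% of 704 reads (70.1% to 76.6%), while libraries 2 and 3 gave 11.5% of 260 (8.20% to 16.0%) and 23.7% of 300 (19.2% to 28.8%). PDF1.3 took 72.8% of 294 reads in bcl7ab (67.4% to 77.6%). By library it took 67.5% of 40, 88.6% of 70 and 67.9% of 184. In wild type it took 85.7% of 21, 5.36% of 56 and 83.3% of 6 reads, a range that holds the bcl7ab share of 72.8%. In an3 it took 7.21% of 638 reads in library 1 (5.45% to 9.48%), 35.5% of 110 in library 2 (27.1% to 44.7%) and 10.2% of 254 in library 3 (7.08% to 14.6%), while PDF1.2 took 50.8%, 50.9% and 57.9%. PDF1.1 had 0 of 861 reads in swi3d, which allows a share of up to 0.348%. Intervals and limits cover counting error only. Reads of the defensins could be mixed where transcripts are identical over a read: exact 50-base windows shared between members made up 5% of PDF1.2b and 4.90% of PDF1.3, and 0.566% of PDF1.2 and 0.601% of PDF1.2c, with none in PDF1.1.

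PR4 (AT3G04720), the hevein-like protein that binds chitin, had the highest level of the 9 per length in wild type, 95.4 CPM per kilobase, and rose in 5 mutants. It was 2175, 2534 and 2786 in wild type, 16446, 10033 and 12620 in pms2ab, 8067, 8457 and 11962 in swp73b, and 9879, 6125 and 8461 in minu12. These 3 lay above wild type in every library, with log2 changes of 2.36 ± 0.21, 1.91 ± 0.21 and 1.69 ± 0.21 (limma adjusted p = 7.04e-11, 1.68e-08 and 8.01e-08). It was 4962, 4641 and 7433 in brm and 4049, 4414 and 4212 in an3, with log2 changes of 1.16 ± 0.21 and 0.76 ± 0.21 (limma adjusted p = 2.54e-05 and 0.013).

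PR4 in an3 missed the threshold without wild-type library 1 (adjusted p = 0.0767). In the order of means, only the step from minu12 to brm was called among the 11 (log2 difference 0.53 ± 0.21, limma adjusted p = 0.034), in a comparison in which 49.9% of all genes were called. PR4 was not called in swi3d (3767, 2387 and 3311, limma adjusted p = 0.288), where 4 of the 5 defensin genes rose, nor in brd1213, brip12, bcl7ab or syd. In sys123 it was 1715, 2002 and 1524, under every wild-type value but not called (limma adjusted p = 0.0608). The fit of only these 2 groups (0.0201), DESeq2 (0.0486) and scaling by library totals (0.0362) called it lower.

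CHI-B (AT3G12500), the basic chitinase also known as PR3, fell in 5 mutants and rose in 1. It was 1336, 1366 and 1346 in wild type and 3148, 2731 and 2880 in minu12, the highest of the series by a called step from an3, the next in order (log2 difference 0.80 ± 0.12, limma adjusted p = 5.38e-06, with 45.6% of all genes called). In the BAS mutants it was 628, 638 and 694 in brm, 707, 829.9 and 715 in brip12, and 1003, 844 and 1146 in brd1213. All of these lay under wild type, with log2 changes of -1.05 ± 0.12, -0.85 ± 0.12 and -0.45 ± 0.12 (limma adjusted p = 5.33e-08, 5.46e-06 and 0.00988), the last lost without brd1213 library 2 (0.0929).

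CHI-B fell also in the libraries labelled syd (768, 827 and 973) and in sys123 (1035, 787 and 763), each by 0.66 ± 0.12 on the log2 scale (limma adjusted p = 0.000159 and 0.000192). It did not pass the test in swi3d (1264, 1022 and 1035), pms2ab (1889, 1426 and 1561), an3 (1798, 1559 and 1687), bcl7ab (1052, 1132 and 1232) or swp73b (1190.2, 1197 and 1541). In the first 4 of these the libraries did not overlap wild type, with limma adjusted p from 0.0746 to 0.135. CHI-B was called lower in swi3d without swi3d library 1 (0.044), higher in pms2ab without pms2ab library 2 (0.0314), and lower in bcl7ab under scaling by library totals (0.0158). Thus the chitinase gene fell in brm, where 7 of the other members rose, and rose in minu12 together with PDF1.2, PDF1.2c and PDF1.3.

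**Figure D4:**
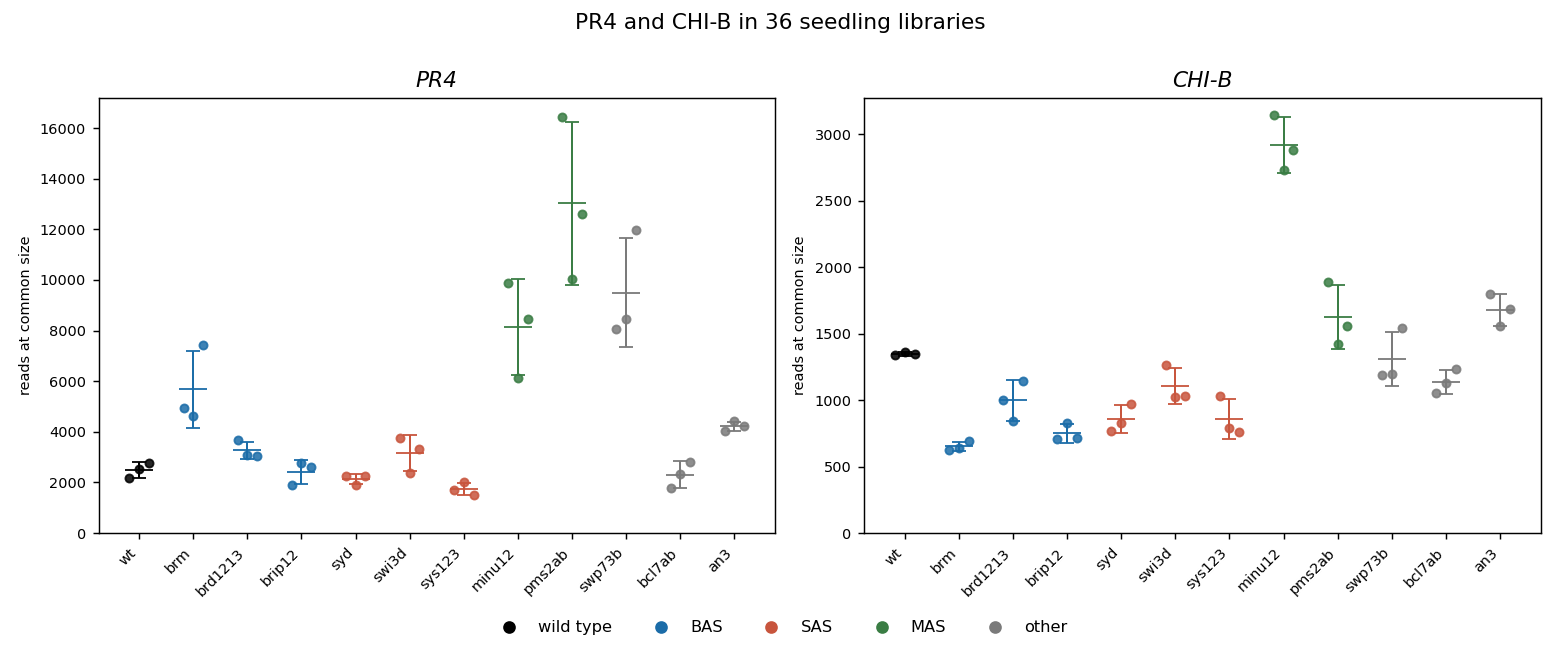
Normalised read counts of PR4 and CHI-B (vertical axes, reads at the common library size) in 36 libraries of 12 genotypes. Points are libraries and bars are means ± SD (n = 3). PR4 is highest in pms2ab, with no library under 10033, and CHI-B in minu12, with none under 2731.

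Against SAS, the mean over the BAS mutants was higher in 7 of the 9 genes and lower in CHI-B (27.4% and 28.8% of all genes). Not every BAS mutant had higher means than every SAS mutant in these genes. The SAS mutant swi3d had higher means than brm, the highest BAS mutant, for PDF1.2 (96.6 against 47.1), PDF1.2c (46.6 against 22.9) and PDF1.3 (121 against 107). None of these differences was called, with limma adjusted p = 0.401 for PDF1.2c and 0.896 for PDF1.3. PDF1.2 had means of 0.336 in syd and 0.348 in sys123. Against MAS, the BAS mutants were higher in ERF1 and PDF1.1 and lower in 5, namely PDF1.2, PDF1.2c, PDF1.3, PR4 and CHI-B (31.7% and 32.9%). Against MAS, the SAS mutants were lower in 8 and higher in none (35.3% higher and 34.3% lower).

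ORA59 was not told apart between BAS and MAS (log2 difference -0.02 ± 0.18, limma adjusted p = 0.932). It was higher in BAS than in SAS by 1.98 ± 0.16 and lower in SAS than in MAS, with a log2 difference of -2.00 ± 0.18 (limma adjusted p = 1.37e-11 and 3.83e-11). PDF1.2 was lower in BAS than in MAS by a log2 difference of -3.46 ± 0.59 (limma adjusted p = 6.86e-06), and PR4 by -1.53 ± 0.13 (limma adjusted p = 2.66e-11). The difference of PDF1.2c between BAS and SAS (1.301 ± 0.54, limma adjusted p = 0.0392) was lost in edgeR (0.0667), with no filter (0.0515) and with a pseudocount of 5 (log2 difference 0.46, 0.317). It was also lost, at 0.0505 to 0.114, without library 1 or 2 of brm, 2 of brd1213, 1 or 3 of brip12, 1, 2 or 3 of syd, 2 or 3 of swi3d, or 1 or 3 of sys123. The PDF1.2 difference between BAS and SAS (1.52 ± 0.53, limma adjusted p = 0.0151) was lost with a pseudocount of 5 (0.61, 0.174) and without brip12 library 3 (0.0502). Between BAS and MAS, the ERF1 call (0.0201) was lost without library 3 of minu12 (0.0643) or pms2ab (0.0582). The PDF1.1 call (0.0167) was lost without brm library 1 (0.0505) or pms2ab library 2 (0.0603), and with a pseudocount of 0.1 (0.149).

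Mutants of 1 class also differed from each other. In the libraries labelled syd 6 of the 9 genes were lower than in swi3d and none higher, where 21.6% of all genes were called. PDF1.3, PDF1.2 and PDF1.2c differed most, with fitted log2 differences, syd minus swi3d, of -6.01, -6.13 and -5.54, which rest on 4 reads in the libraries labelled syd and depend on the pseudocount. In swi3d 7 of the 9 were higher than in sys123 (15.5% of all genes called), with ORA59 higher by 1.21 ± 0.28 (limma adjusted p = 0.00402) and PR4 by 0.84 ± 0.21 (0.0065). Between syd and sys123 only ERF1 was called, higher in syd by 1.302 ± 0.42 (limma adjusted p = 0.0283, 18.3% of all genes called).

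Within BAS, brm and brd1213 differed in 5 of the 9 genes, 4 of them higher in brm, where 39.0% of all genes were called. PDF1.1 was higher in brm by 3.27 ± 0.78 (limma adjusted p = 0.00128) and PR4 by 0.77 ± 0.21 (0.00363), while ORA59 was not called (-0.13 ± 0.28, 0.751). Between brm and brip12, 4 of the 9 were called, all higher in brm, which is no larger a share than the 47.6% of all genes. Between brd1213 and brip12 none passed in limma (3.06% of all genes, adjusted p from 0.0697 to 0.92), with 3 of 9 at an unadjusted p under 0.05. Between brd1213 and sys123, 6 of the 9 were called (35.4% of all genes), all higher in brd1213, namely ORA59, ERF1, PDF1.1, PDF1.2, PDF1.3 and PR4, of which PDF1.2 rested on 17 reads in brd1213 against 1 in sys123. Within MAS, CHI-B was higher in minu12 than in pms2ab by 0.85 ± 0.12 (limma adjusted p = 6.92e-06) and PR4 lower by a log2 difference of -0.67 ± 0.21 (0.0134). These were the 2 called of 9, no larger a share than the 29.2% of all genes.

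**Figure D5:**
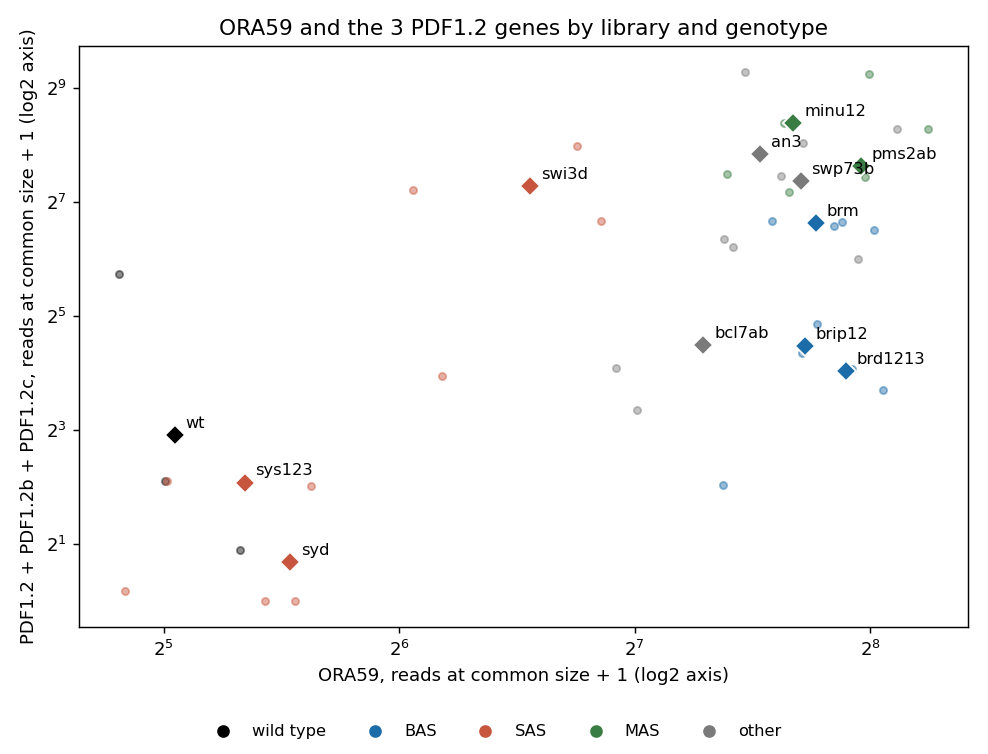
Summed normalised read count of PDF1.2, PDF1.2b and PDF1.2c against that of ORA59, both plus 1 on log2 axes, in 36 libraries (circles) and as means of the log2 values for 12 genotypes (diamonds, n = 3). The libraries of brd1213 have ORA59 counts of 209 to 265 and summed counts of 11.9 to 19.3, while those of swi3d have 65.7 to 115 and 99.9 to 252.

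The order of the genotypes by ORA59 was not their order by the PDF1.2 genes. The PDF1.2, PDF1.2b and PDF1.2c counts summed to 19.3, 15.7 and 11.9 in brd1213, 27.8, 3.10 and 90.3 in brip12, and 98.9, 99.8 and 94.5 in brm, although ORA59 was not told apart among these 3. In swi3d, where ORA59 was lower than in every library of these 3, the sums were 252, 99.9 and 146. Wild type gave 3.29, 52.3 and 0.85, so library 2 lay above all of brd1213 and the others below.

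Over the 12 genotype means of log2(value + 1), Pearson's r was 0.985 between PDF1.2 and PDF1.2c, 0.777 between PDF1.2 and PDF1.2b, and 0.737 between ORA59 and PDF1.3. Over the 36 deviations of libraries from their genotype mean it was 0.909, 0.728 and 0.608 for the same pairs. So PDF1.2 and PDF1.2c also moved together among libraries of the same genotype, where they share library depth and plants. Between ORA59 and ERF1 r was 0.357 and 0.238, and between CHI-B and ERF1 0.0563 and -0.344. These values describe the points and carry no p.

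Of the 11 genes of ethylene signalling, all tested, 7 rose in brip12 and none fell, 6 rose in brd1213 and none fell, and 6 rose and 3 fell in brm. Among all genes 11.8% rose and 13.2% fell in brip12, 9.23% and 10.6% in brd1213, and 24.7% and 25.5% in brm. In the other 8 mutants 1 to 4 of the 11 rose and 0 to 5 fell, with most falls in swp73b (1 rose and 5 fell), minu12 (1 and 4) and pms2ab (4 and 4). Among all genes 23.9% rose and 25.5% fell in swp73b, 24.1% and 24.8% in minu12, and 29.0% and 29.8% in pms2ab. In the 3 BAS mutants the median log2 changes of the list were 0.50, 0.27 and 0.40, against -0.01, 0.01 and -0.01 for all genes. ETR2, an ethylene receptor, rose in 7 mutants, by 1.46 ± 0.13 in brm and 1.16 ± 0.13 in brip12 (limma adjusted p = 5.25e-10 and 1.01e-07). CTR1, the kinase that holds the pathway off, rose in the 3 BAS mutants and pms2ab, by 1.12 ± 0.09 in brip12 (limma adjusted p = 1.41e-10). EIN3 rose in none and fell in 4.

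Among related ERF genes 10 of 13 were tested. ERF4, a repressor of GCC-box genes, fell in 10 of the 11 mutants. It was 4601, 3805 and 3526 in wild type, against 632, 641 and 456 in swp73b and 863, 823 and 674 in brm (log2 changes -2.79 ± 0.34 and -2.34 ± 0.34, limma adjusted p = 1.18e-07 and 1.33e-06). In the libraries labelled syd it was 6702, 2734 and 882, spread on both sides of wild type and not called. ERF2, an activator, rose in 7 mutants and fell in none, by 1.37 ± 0.29 in pms2ab and 1.32 ± 0.29 in brd1213 (limma adjusted p = 0.000148 and 0.00114). The gene listed as TDR1, next to ERF1, fell in 5, and of the ERF1 falls it shared those in swi3d, sys123, minu12 and bcl7ab.

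Of 12 regulators of the branch 11 were tested, and MYC2 was listed at 0 in every library. GRX480, a glutaredoxin known to repress ORA59, fell in 8 mutants and rose in none. It was 73.2, 19.99 and 30.4 in wild type and 7.54, 7.91 and 5.51 in brm (log2 change -2.21 ± 0.62, limma adjusted p = 0.00349). WRKY33, an activator of defence against necrotrophic fungi, fell in 7, from 5567, 4632 and 5130 in wild type to 908, 834 and 1056 in swp73b (-2.46 ± 0.38, limma adjusted p = 4.29e-06). In the libraries labelled syd WRKY33 was 8589, 2043 and 1232, so library 1 stood apart there as it did for ERF4.

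NPR1, the coactivator of salicylic acid responses, fell in 8 mutants by at most 0.81 on the log2 scale, and WRKY70, which acts on the salicylic acid side, fell in 7 and rose in an3. COI1, the jasmonate receptor, fell in 6 by at most 0.29. Of the 11 regulators, 2 rose and 7 fell in pms2ab, 0 rose and 7 fell in minu12, and 1 rose and 7 fell in sys123, where 29.8%, 24.8% and 12.8% of all genes fell. In brm 1 rose and 6 fell, and in swi3d and swp73b 0 rose and 6 fell. In the other 5 mutants 0 to 2 rose and 0 to 4 fell, and in an3 1 rose and 0 fell. Among all genes 5.03% (an3) to 16.4% (bcl7ab) rose in these 5, and 5.74% (an3) to 14.2% (bcl7ab) fell.

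PDF1.4, the defensin gene nearest the 5 by name, rose in 8 mutants. It was 3.13, 8.24 and 1.69 in wild type, 119, 108 and 157 in pms2ab, and 43.0, 56.7 and 102 in swp73b (log2 changes 4.76 ± 0.42 and 3.77 ± 0.42, limma adjusted p = 9.1e-11 and 3.06e-08). Of the other defensins 6 of 9 were tested, and apart from PDF1.4 none rose in over 2 mutants. Of 8 other effector genes, all tested, 5 rose in pms2ab and 5 in swp73b, with none falling in either, where 29.0% and 23.9% of all genes rose. In the other 9 mutants 1 to 3 rose, and up to 3 fell, as in brip12 (2 rose and 3 fell) and syd (1 rose and 3 fell). Among all genes 13.2% fell in brip12 and 11.3% in syd, and 5.03% (an3) to 24.7% (brm) rose in these 9 mutants.

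DTX18 and ACT, the transporter and the acyltransferase of the hydroxycinnamoyl agmatines made against pathogens, rose in 7 and 6 mutants. DTX18 was 64.5, 128 and 80.1 in wild type and 971, 894 and 1477 in brip12 (log2 change 3.63 ± 0.56, limma adjusted p = 1.08e-05), so it was high where the PDF1.2 genes were not called. The thionin gene THI2.1 rose in 5, including the 3 SAS mutants, with 86.9, 20.1 and 39.4 in sys123 against 0.0176, 4.12 and 1.79 in wild type. VSP2, a marker of the MYC2 arm, rose in none and fell in 4: brm, brd1213, brip12 and syd, by 3.03 ± 0.46 on the log2 scale in brm (limma adjusted p = 2.24e-06).

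Of 14 flanking genes outside the 9, 12 were tested, and their calls over the 11 mutants never exceeded 5 for a gene. Of all genes tested, 5.03% (an3) to 29.0% (pms2ab) rose and 5.74% to 29.8% fell, so counts of this size are not particular to flanking genes. AT1G06170 beside ORA59 and BRIZ2 beside PDF1.3 were called in none, and ORA59 and PDF1.3 were each called in 9. The neighbours of ORA59 were low, with mean values of 8.68 for AT1G06170 and 2.17 for AT1G06148, so the lack of a call says little there. TDR1 beside ERF1 fell in 5 and rose in none, and 4 of the 5 were among the 6 mutants in which ERF1 fell. The fifth was pms2ab, where TDR1 fell (log2 change -2.37 ± 0.68, limma adjusted p = 0.00364) while ERF1 was not called. AT5G44440 beside PDF1.2c fell in syd, sys123 and swp73b and rose in brm and pms2ab, and CYSB beside CHI-B rose in swi3d and pms2ab.

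By likeness over the 12 genotype means among 8024 other genes, PYL4 (r = 0.925) and PYL1 (r = 0.902), both abscisic acid receptor genes, were closest to ORA59. PYL4 was 1048 ± 43.8 in wild type, 1018 ± 254.6 in sys123, 1362 ± 364 in syd and 3912 ± 271 in brip12. ATAF2, a NAC transcription factor gene, was closest to ERF1 (r = 0.964), with 1242 ± 186 in wild type and 378 ± 33.3 in sys123, and PBP1 came next (0.931). GRF10 (r = 0.973) and GPX8 (0.972) were closest to PR4, UBC29 (0.973) and KNAT7 (0.930) to CHI-B, and AST91 (0.874) and YLS5 (0.869) to PDF1.2. For the other defensins they were EMB2217 (0.949) and TRIP-1 (0.948) for PDF1.1, LTA3 (0.91) and GSR 1 (0.899) for PDF1.2b, ATS (0.904) and MC2 (0.88) for PDF1.2c, and COBL7 (0.896) and EB1B (0.885) for PDF1.3. With 12 points and 8024 genes searched, high values of r arise for some gene in any case, and nothing about shared control is read from them.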

How the data were processed

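Per the submitters' processing notes, reads were aligned with HISAT2 to TAIR10 and analysed with edgeR, without versions or filters in the sources used here. The deposited values are a signal: the authors' counts per gene adjusted to a common library size, in 11 tables that repeat the wild-type columns. Undoing that adjustment recovered whole reads for 99.999% of 1171728 values (all but 16, within 0.0001). Because the values are not raw counts, log2(value + 1) was tested with limma 3.58.1 (trend) in R 4.3.3, in 1 fit of 36 libraries over 23297 genes averaging 1 or more, and p-values were adjusted by Benjamini-Hochberg within each comparison, with a threshold of 0.05. The tests were checked on simulated data. edgeR 4.0.16 and DESeq2 1.42.0 on recovered reads, other pseudocounts, filters and scalings, a replicate block, fits of only the groups compared, and leaving out each library were alternatives.

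edgeR on recovered reads called 2418 (an3) to 13786 (pms2ab) genes against wild type. All 9 genes were named, with the 2 genes whose genotype means were most like each, and every gene of the pathway lists is counted. The members and lists were chosen with earlier results of these data known. Wilson intervals are at 95%. MYC2 was listed at 0 in every library. Sequences and starts come from RefSeq TAIR10.1 by locus tag, and counts were not stated to use strand.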

Additional observations from a re-analysis of the deposited data

How the results depend on the processing

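Over 126 gene results, 2286 values under alternatives were computed. Of these, 2178 kept their side of the threshold, 78 fell short of it and 30 newly passed it. Where the main fit or the alternative made a call, 0 reversed in direction. Direction was not compared where neither made a call, and there it could change: PDF1.2 in brd1213 ran from -0.96 to 1.87 on the log2 scale. The number of the 9 genes called went from 4 to 2 in brd1213 with edgeR, from 3 to 1 in the libraries labelled syd with only the groups compared and to 5 with DESeq2, and from 2 to 4 in sys123 with DESeq2. Leaving out 1 library gave 7 to 8 called in brm, 2 to 4 in brd1213, 2 to 4 in brip12, 2 to 3 in syd, 5 to 6 in swi3d, 2 to 3 in sys123, 6 to 9 in minu12, 5 to 7 in pms2ab, 7 in swp73b, 3 to 5 in bcl7ab and 4 to 5 in an3. The same gave 6 to 9 between BAS and SAS, 6 to 7 between BAS and MAS, and 8 between SAS and MAS.

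Samples with the same replicate number did not deviate together (mean r = 0.00504, from -0.206 to 0.148, against -0.00253 for other numbers). With the replicate number as a block, PDF1.3 in syd lost its call (limma adjusted p = 0.0502), and no other member call changed. Fits of only the groups compared called 2902 genes in brd1213 (4621 in the fit of all libraries), 2860 in syd (5418) and 4045 in sys123 (6300). With library totals as scaling, the share of calls that were higher became 36.8% in brip12 (47.3% before), 31.7% in sys123 (52.5%), 61.2% in swp73b (48.4%), 25.3% in bcl7ab (53.6%) and 32.2% in an3 (46.7%), and the median of all genes shifted by -0.11, 0.11 and -0.17 in sys123, swp73b and bcl7ab. Wild type holds 2 to 33 reads of PDF1.1, PDF1.2, PDF1.2b, PDF1.2c and PDF1.3, so folds of these genes are limited by depth and by wild-type library 2.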
